A study of Petunia x hybrida with 6 samples.

Results

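Of 85549 Trinity subcomponents assembled from petunia corolla RNA, 167 held at least 1 contig that was higher and at least 1 that was lower on day 2 than in buds, while the sum of their component stayed within 2-fold. These 167 subcomponents, which lie in 163 components, are described here. They were selected on the measured counts themselves. Counts were divided by a size factor for each library, the median ratio of its component sums to the mean of all libraries, and the result is called a scaled count. A subcomponent was taken when a contig rose at least 2-fold and another fell at least 2-fold between the stage means, each with a mean of at least 50 scaled counts and no overlap between the 3 libraries of either stage. In addition, the sum of its component had to change under 2-fold and lie under 49540 scaled counts, which is 500 CPM (counts scaled to a common total) for a library of the mean total. All fold changes and shares of the selected contigs below are therefore a description of what was chosen and not a test.

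The samples were corollas, the petals of the flower, of wild-type *Petunia hybrida* cultivar Mitchell diploid, taken as buds or on day 2 postanthesis. There were 3 libraries per stage, and every library pooled corollas of at least 8 flowers. No treatment, transgene or mutation distinguished the groups, and the stages were harvested at the same hour of the day. Library totals ranged from 87419488 to 106341976 counts in buds and from 96184358 to 111398763 counts on day 2. The deposited table names contigs by number only, holds no sequence and pairs no contig with a gene, so that no pathway, cell type marker or gene function could be looked up.

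A *de novo* assembler joins overlapping reads into graphs and reports each path through a graph as a contig. In Trinity names, the component is a cluster of reads, the subcomponent is a connected graph within it that often stands for a gene or a set of closely related genes, and the sequence number is the path. Paths of a graph can be splice forms, unspliced or truncated transcripts, alleles, or copies of a gene family. A plant gene can keep a steady RNA total while its splice forms are exchanged, and a family can do so while its copies are exchanged. Counts per contig show these cases alike. Which of them applied to any subcomponent was not tested, as this would need the sequences.

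Opposing contigs were uncommon among the 9236 subcomponents with 2 or more contigs of at least 50 scaled counts. Such a pair was found in 304 of them. In 88 of the 304 the component sum itself moved at least 2-fold, upwards in 63 and downwards in 25. Another 49 had a steady sum above the upper limit, which left the 167, or 1.81% of the 9236. None of the components that carry the numbers of the study's phenylalanine transporter candidates was among them, a match made by number alone. The ratio of day 2 to bud of their sums was 2.47 for *Ph21511*, 2.34 for *Ph18042* and 0.469 for *Ph19221*. With these size factors each sum thus moved past the 2-fold limit, so that none could qualify whatever its contigs did. The ratios depend on the scaling, and those with library totals alone are not given. The paper's fold changes for the candidates are of single contigs, normalized otherwise, and are not compared here. Of 5 contigs of at least 50 scaled counts in the component of *Ph18042*, 2 rose and none fell, and of 5 in that of *Ph19221*, 2 fell and none rose. The component of *Ph21511* held a single contig.

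The members were complex graphs. They held 2 to 155 contigs each, with a median of 22, and a median of 16 contigs of at least 50 scaled counts, whereas the median over the 9236 was 3. The share of subcomponents that qualified followed this number. Of 3323 subcomponents with exactly 2 such contigs, 11 (0.331%) were members, as were 42 of 775 (5.42%) with 11 to 20 and 27 of 198 (13.6%) with over 40. A graph with more contigs has more chances to hold an opposing pair, and this was not separated from other properties of large graphs.

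**Figure D1:**
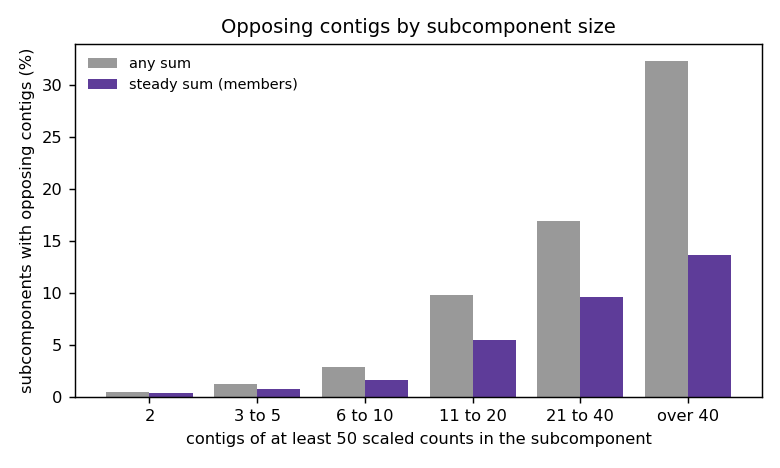
Share of subcomponents with opposing contigs (y axis, %) by the number of contigs of at least 50 scaled counts in the subcomponent (x axis), for any component sum (grey) and for a steady sum below the limit (purple). The steady class rises from 0.331% with 2 contigs to 13.6% with over 40.

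In all, the 167 subcomponents held 4712 contigs, of which 3729 reached 50 scaled counts. Of these, 709 (19.0%) rose and 814 (21.8%) fell by the criteria above, and 2206 did neither, so that most contigs of the members did not oppose anything. Over all 71119 contigs of at least 50 scaled counts in the data, 15.8% rose and 16.7% fell in the same way. These shares lie near those of the members, in which the selection itself required at least 1 contig of each kind. Falling contigs outnumbered rising ones in 70 members and rising ones outnumbered falling ones in 56, while 41 held equal numbers. In 36 members every contig of at least 50 scaled counts either rose or fell.

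For each member, the rising contig and the falling contig with the most scaled counts are called its leading contigs. The median fold change of the leading contigs was a 2.69-fold rise and a 3.02-fold fall. Both moved under 3-fold in 50 members and both moved at least 4-fold in 17. In edgeR's quasi-likelihood test across all 91401 tested contigs, 30.4% were called higher and 31.5% lower on day 2, and all 167 leading rising contigs were called higher and all 167 leading falling contigs lower. The selection used the same contrast, so that these calls say nothing further about the members. The component sum was called different between the stages for 115 of the 167 members, higher for 72 and lower for 43. Members that share a component were each counted. Over all 24677 component sums tested, 59.2% were called. Steady here thus means under 2-fold and not unchanged. The ratio of day 2 to bud ran from 0.509 to 1.99 with a median of 1.12, and the sum stayed within 1.5-fold for 105 members.

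**Figure D2:**
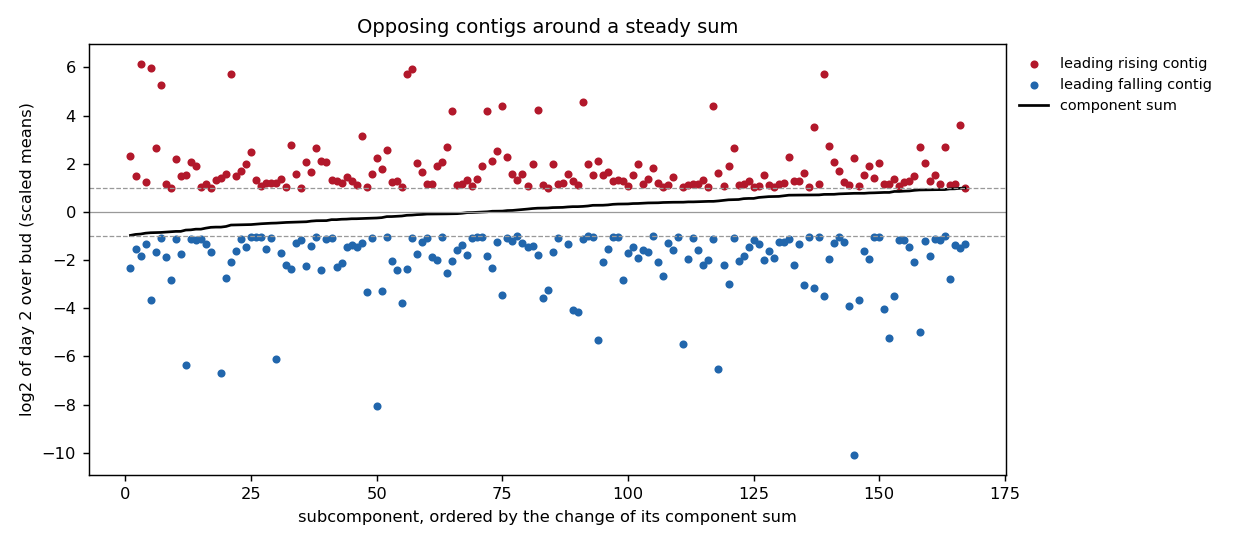
Log2 ratio of day 2 to bud (y axis) of the leading rising contig (red), the leading falling contig (blue) and the component sum (black line) for the members, ordered by the change of the sum (x axis). Dashed lines mark 2-fold, the sums run from 0.509 to 1.99 on the linear scale, and the 3 leading contigs without any count in the lower stage have no point.

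Which subcomponents qualified depended on the library scaling. With library totals alone in place of the size factors, 163 subcomponents met the same criteria but only 86 were shared with the 167. The median log2 ratio of the contigs of at least 50 scaled counts was 0.08 with the size factors and −0.37 with totals alone. The share that a contig takes of its own subcomponent does not depend on this scaling and is given beside the counts.

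The plainest cases were the 10 members whose subcomponent consisted of exactly 2 contigs. In comp13384_c0, contig comp13384_c0_seq1 of 1682 bp had 378, 364 and 426 scaled counts in buds and 1118, 1257 and 1098 on day 2, a 2.97-fold rise. Its partner comp13384_c0_seq2 of 1543 bp went from 1811, 1713 and 1805 to 249, 406 and 143, a 6.68-fold fall. The stages were far apart for either contig, and the rising contig took 17.96% ± 0.985 of the counts in buds and 82.0% ± 6.47 on day 2 (SD, n = 3), which is an exchange of the major contig. The component sum moved from 2165 ± 79.6 to 1424 ± 217 scaled counts.

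A similar change of shares was measured in comp9512_c0. Its falling contig comp9512_c0_seq2, of 784 bp, had 716, 713 and 415 scaled counts in buds and 5.58, 10.98 and 5.94 on day 2. The rising contig comp9512_c0_seq1, of 942 bp, had 161, 126 and 186 in buds and 336, 827 and 188 on day 2. Here the fall was far wider than the spread between libraries, whereas the rise rested mainly on day 2 replicate 2, since replicate 3 lay just above the highest bud library. Without day 2 replicate 2 the edgeR log2 fold change of comp9512_c0_seq1 was 0.67 instead of 1.47, and the contig was no longer called. Its share of the subcomponent nevertheless rose from 21.4% ± 8.39 to 98.0% ± 0.935, because the falling contig was nearly lost. The component sum was 877, 838 and 600 scaled counts in buds and 342, 838 and 194 on day 2. Only day 2 replicate 2 lay within the range of the bud libraries, so the steadiness of this sum rested on that library.

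In comp12840_c0 the longer contig gave way. The component sum was 3008, 2991 and 2582 scaled counts in buds and 1149, 1452 and 2132 on day 2, lower in every day 2 library. Contig comp12840_c0_seq2, of 3440 bp, fell from 2896, 2883 and 2461 scaled counts to 635, 801 and 1171, while comp12840_c0_seq1, of 1827 bp, rose from 112, 108 and 122 to 513, 651 and 961. On day 2 both contigs were lowest in replicate 1 and highest in replicate 3, and the shorter contig held 44.9% ± 0.185 of the counts in all 3 libraries (SD), up from 4.02% ± 0.602 in buds. On day 2 the share of comp12840_c0_seq1 was steadier than its level, with a coefficient of variation of 0.412% against 32.4%, whereas in buds it was the more variable, with 14.97% against 6.04%.

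In 3 further subcomponents of 2 contigs the rising contig was already the larger in buds. Contig comp14730_c0_seq1 went from 53.9% ± 2.34 to 91.3% ± 1.26 of the counts, comp17994_c0_seq2 from 63.2% ± 2.96 to 94.3% ± 0.885, and comp9954_c0_seq2 from 64.8% ± 6.34 to 95.2% ± 1.34 (SD, n = 3). The falling partners dropped between 3.12-fold and 4.64-fold. The component sums rose, in the same order, from 606 ± 31.8 to 1036 ± 37.1, from 1304 ± 87.9 to 1818 ± 243 and from 520 ± 128 to 968 ± 171 scaled counts. In comp14730_c0 the contigs were nearly equal in length, at 752 and 766 bp, and nearly equal in buds, at 327 ± 20.4 and 279 ± 22.1 scaled counts. They stood at 946 ± 46.7 and 89.7 ± 9.73 on day 2.

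The remaining pairs had few counts, and of these comp16065_c0, comp8969_c0 and comp20218_c2 are named, after their values were seen, to complete the 10. In comp10738_c0, the least counted member, comp10738_c0_seq2 of 3902 bp rose from 3.64, 6.77 and 0 scaled counts to 164, 164 and 223, and comp10738_c0_seq1 of 3846 bp fell from 83.8, 140.2 and 117 to 8.93, 12.98 and 8.31. These contigs differed in length by only 1.44% and exchanged almost all of their counts, the rising one going from 2.92% ± 2.54 to 94.6% ± 1.89. The rising contig of comp16065_c0 went from 12.3% ± 0.927 to 52.7% ± 11.3, that of comp8969_c0 from 11.3% ± 3.75 to 55.8% ± 8.14, and that of comp20218_c2 from 19.2% ± 6.07 to 88.9% ± 8.10. The component sum rose from 117 ± 29.7 to 194 ± 32.8 scaled counts for comp10738_c0 and fell from 356 ± 38.4 to 203 ± 54.4 for comp8969_c0. For comp16065_c0 it was 220 ± 15.1 in buds and 207 ± 68.0 on day 2. For comp20218_c2 the steady sum belongs to a component of which this graph held only 0.608%.

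**Figure D3:**
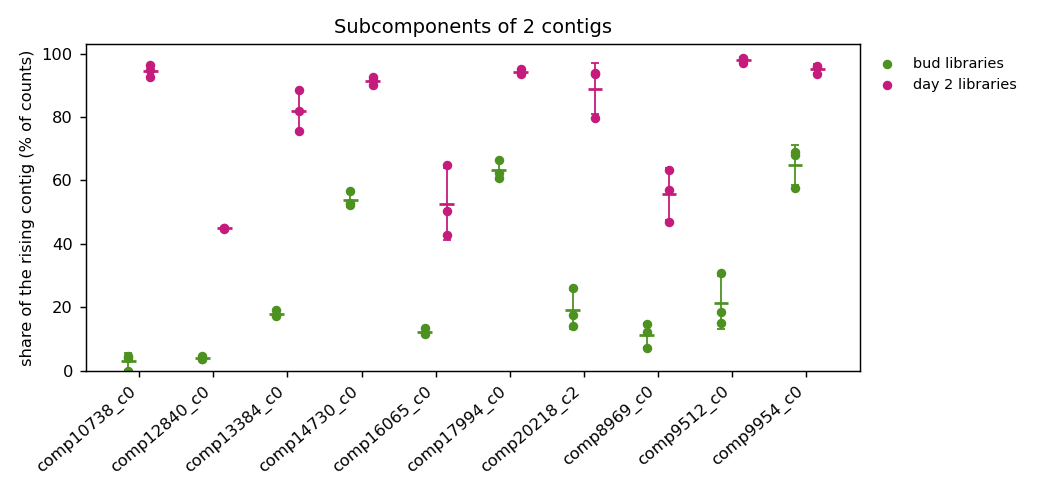
Share of the rising contig in the counts of its subcomponent (y axis, %) for the 10 members of exactly 2 contigs (x axis), with points for the 3 bud libraries (green) and the 3 day 2 libraries (magenta), bars for the means and whiskers for the SD. The share lies higher on day 2 in every pair, for example 17.96% and 82.0% in comp13384_c0.

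A change of the major contig was not limited to pairs. In 30 members the falling contigs together held over 50% of the counts in buds and the rising contigs together held over 50% on day 2. In 8 of them a single falling and a single rising contig did so, 6 of which were the pairs above. The other 2, comp18656_c0 and comp15210_c0, are named here after their values were seen. In comp18656_c0, contig comp18656_c0_seq1 of 3028 bp fell from 13385, 10950 and 12790 scaled counts to 3730, 3798 and 4996. Contig comp18656_c0_seq5 of 2861 bp rose from 5134, 4476 and 4929 to 10814, 11459 and 9125. The first went from 66.8% ± 0.713 to 23.8% ± 4.92 of the subcomponent and the second from 26.2% ± 0.656 to 59.4% ± 4.77 (SD, n = 3). The stages did not overlap for either contig at these high counts, and the component sum was 18508 ± 1715 in buds and 17596 ± 759 on day 2, a difference smaller than the SD in buds. In comp15210_c0 the counts were lower, with comp15210_c0_seq2 of 965 bp going from 327, 275 and 352 to 92.6, 66.9 and 151, and comp15210_c0_seq3 of 417 bp from 84.7, 136 and 105.1 to 261, 320 and 327.

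A whole group of contigs was without counts on day 2 in comp15386_c0, which was also chosen after its values were seen. Its 8 contigs fell into 2 groups of 4. Contigs seq1, seq4, seq6 and seq7, of 3456 to 3641 bp, had 302 to 399 scaled counts in every bud library and no count in any day 2 library. Taking 3 counts over the day 2 libraries as the limit that a count of 0 allows, comp15386_c0_seq4 was at least 316-fold lower on day 2. The other 4 contigs, of 2848 to 3232 bp, had 264 to 429 scaled counts in buds and 729 to 840 on day 2. They held 50.3% ± 8.33 of the counts in buds and all of them on day 2, and the sum of the component was 2739 ± 139 and 3120 ± 90.5. Among the bud libraries the groups ran in opposite order, since the falling contigs were highest and the rising contigs lowest in bud replicate 2. Within either group every contig could be linked to the others through pairs whose counts lay less than 10% apart in each library, so that the 8 contigs followed only 2 patterns.

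A count of 0 over a stage was found for only 2 more leading contigs, which are likewise named after their values were seen. Contig comp20106_c0_seq22 had 190, 281 and 182 scaled counts in buds and no count on day 2, at least a 199-fold fall. In the opposite direction, comp20108_c5_seq7 had no count in buds and a mean of 127.9 scaled counts on day 2, at least a 145-fold rise. These contigs were small parts of their graphs, with 4.43% of the bud counts of comp20106_c0 and 0.473% of the day 2 counts of comp20108_c5.

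**Figure D4:**
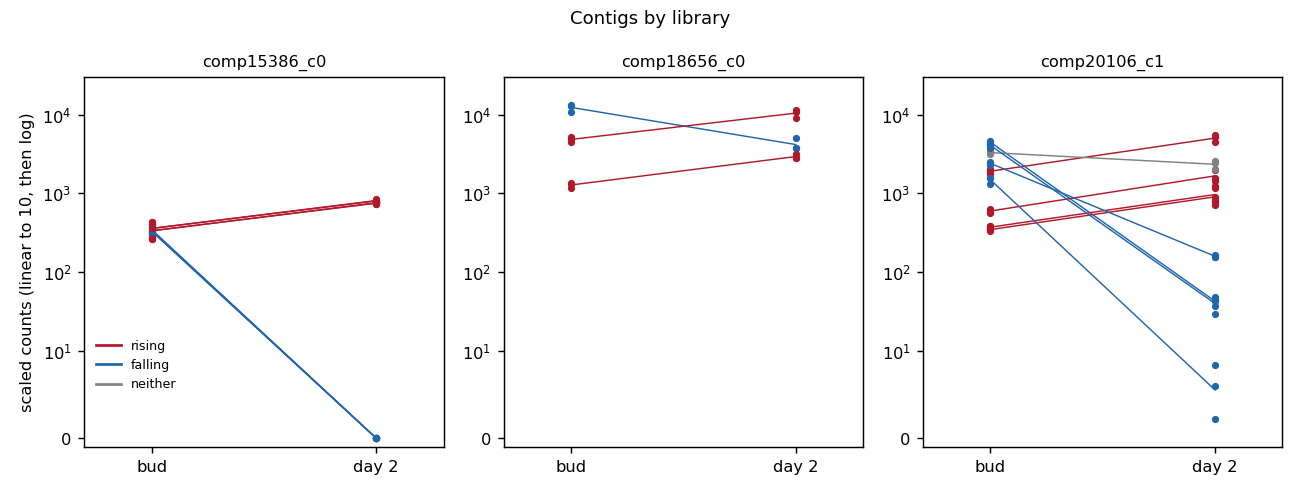
Scaled counts (y axis, linear to 10 and logarithmic above) of all contigs of at least 50 scaled counts in 3 members, with a point for each library of a stage (x axis) and lines joining the stage means, for rising (red), falling (blue) and other contigs (grey). The falling contigs of comp15386_c0 reach 0 in all day 2 libraries, and the leading contigs of comp18656_c0 and comp20106_c1 change places.

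Among the members with counts in both stages, the leading contigs lay farthest apart in comp19724_c0. Contig comp19724_c0_seq12 of 3288 bp had 712, 726 and 762 scaled counts in buds and 2 counts in all on day 2, both in replicate 2. Its fall was 1101-fold between the stage means of scaled counts. With the day 2 libraries pooled, so that the 2 counts are divided by the sum of the size factors, it was 1004-fold, and the exact Poisson interval of the 2 counts allows 278-fold to 8291-fold (95%, counting error only). It took 29.2% ± 2.28 of the subcomponent in buds, while the leading rising contig comp19724_c0_seq3 of 5164 bp went from 161 ± 32.8 to 767 ± 171 scaled counts.

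In comp20106_c1 the opposition ran through nearly the whole graph. Of its 9 contigs 4 rose, 4 fell and 1 did neither. Contig comp20106_c1_seq2 fell 105-fold, from 4232, 4560 and 4569 scaled counts to 36.8, 47.9 and 42.8, and comp20106_c1_seq6 fell 269-fold, from 1486 ± 138 to 5.51 ± 3.07. The leading rising contig comp20106_c1_seq5 gained far less in proportion, from 2057, 1747 and 1931 to 5139, 4482 and 5487. Together the falling contigs held 65.5% ± 1.66 of the counts in buds and 2.23% ± 0.319 on day 2, and the rising contigs 17.1% ± 1.22 and 76.7% ± 1.84. The rising contigs were short, at 596 to 1171 bp, whereas the falling ones measured 1041 to 2735 bp. The component sum fell from 23906 ± 986 scaled counts in buds to 15433 ± 1199 on day 2.

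Contigs of comp19024_c0 showed how members can vary between libraries of a stage. The falling contig comp19024_c0_seq5 of 1796 bp had 801, 1234 and 423 scaled counts in buds and 22.3, 0.999 and 3.56 on day 2. The rising contig comp19024_c0_seq1 of 1791 bp had 302, 436 and 157 in buds and 1140, 832 and 735 on day 2. Bud replicate 3 was the lowest and bud replicate 2 the highest for either contig, a range of 2.91-fold and 2.77-fold. As shares of the subcomponent the same bud values hardly moved, at 42.3% ± 1.14 and 15.5% ± 0.149 (SD, n = 3). On day 2, where comp19024_c0_seq5 had few counts, its coefficient of variation was 115% for the share and 129.9% for the level.

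The other members with the widest opposition were comp19345_c0, with uneven day 2 libraries, and comp19811_c0, with leading contigs of small share. In comp19345_c0, comp19345_c0_seq48 rose from 1.82, 51.2 and 62.4 to 2255, 4118 and 817 scaled counts, and comp19345_c0_seq2 fell from 4967, 4941 and 4162 to 164, 119 and 830. Day 2 replicate 3 lay nearest to the buds for both of these contigs. Without it the edgeR log2 fold changes were 6.31 and −5.10, wider than the 5.90 and −3.72 with all libraries. The falling contig held 39.2% ± 3.29 of the counts in buds and the rising one 34.2% ± 16.9 on day 2. The component sum of comp19345_c0 fell from 11968 ± 754 to 6571 ± 1852 scaled counts. In comp19811_c0, the leading contigs held at most 2.22% of the counts of the subcomponent, and the falling one, comp19811_c0_seq16, went from 488, 246 and 404 scaled counts to 1.12, 2.00 and 1.19.

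The steadiest sum was that of comp18299_c0, with 3069 ± 141 scaled counts in buds and 3078 ± 65.7 on day 2. Within it comp18299_c0_seq12 of 1212 bp rose 18.4-fold, from 39.2, 72.5 and 56.9 to 1002, 945 and 1152. The falling comp18299_c0_seq5 of 2064 bp went from 257, 293 and 340 to 83.7, 88.9 and 74.8, fewer counts than the other contig gained. The other 9 contigs of at least 50 scaled counts met neither criterion.

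In comp20343_c1, with sums of 3706 ± 215 and 3686 ± 162, comp20343_c1_seq3 rose 3.74-fold to 531 ± 9.97 scaled counts and comp20343_c1_seq12 fell 2.04-fold to 229 ± 25.7. The changes in comp19228_c0, with sums of 4515 ± 437 and 4469 ± 145, were the least secure of these. Contig comp19228_c0_seq2 had 27.3, 33.8 and 70.3 scaled counts in buds and 83.7, 86.9 and 169 on day 2, so that the highest bud library came close to the lowest day 2 library. Its edgeR log2 fold change was 1.301 and lay between 0.90 and 1.83 when any 1 library was left out. The call was lost without bud replicate 1 (1.06), without bud replicate 2 (1.14) or without day 2 replicate 3 (0.90).

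Among the most counted members, the part of the graph held by the opposing contigs varied widely. In comp18584_c1, with 12 contigs, they were most of the graph. Its leading falling contig comp18584_c1_seq2 of 2846 bp went from 14935, 15556 and 18430 scaled counts to 5950, 4458 and 4882, and the leading rising contig comp18584_c1_seq7 of 2232 bp from 2609, 3311 and 3862 to 6715, 6367 and 6515. Together the falling contigs took 82.2% of the counts in buds and 39.8% on day 2, and the rising contigs 15.4% and 54.5%. Per kilobase, the leading falling contig went from 5730 to 1791 scaled counts and the leading rising contig from 1461 to 2927, which keeps the exchange of rank.

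Among the 81 contigs of comp19788_c1, 41 fell and 11 rose, and their component sum was 49029 ± 1599 in buds and 48148 ± 4359 on day 2. The falling contigs went from 37.8% to 9.67% of its counts and the rising contigs from 19.4% to 48.2%, although no leading contig exceeded 5.81% in either stage. In comp19593_c0, 11 rising contigs held 75.2% of the counts in buds and 81.1% on day 2, so that the graph as a whole rose 1.94-fold around 5 minor falling contigs.

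At the other end, the leading contigs of comp19540_c10 were marginal. Contig comp19540_c10_seq9 had 24.6, 15.5 and 10.3 scaled counts in buds and 96.0, 122 and 98.6 on day 2, and neither leading contig reached 1% of the subcomponent. Contig comp19010_c0_seq5 of 751 bp rose 18.6-fold, from 138, 170.2 and 301 to 3542, 3234 and 4564 scaled counts, and held 7.34% ± 1.11 of comp19010_c0 on day 2. In comp20296_c3, comp20296_c3_seq28 of 4694 bp rose from 334, 471 and 294 to 2994, 2316 and 2113. The falling contigs of the last 2 graphs dropped 3.48-fold and 3.84-fold.

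Over all members the share taken by the leading contigs varied widely. The leading falling contig held a median of 7.91% of the counts of its subcomponent in buds (range 0.335% to 97.1%), and the leading rising contig a median of 14.2% on day 2 (range 0.208% to 98.0%). Both reached 10% in 63 members and both stayed below 10% in 58. The gain of all rising contigs and the loss of all falling contigs seldom matched in scaled counts. They were within 1.5-fold of each other in 25 members, and the gain was the larger in 86 and the loss in 81.

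Ranks within the graphs changed with the stage in many but not all members. The falling leading contig had more counts than the rising one in every bud library and fewer in every day 2 library in 76 members. In 45 the rising contig had more counts in all 6 libraries, in 20 the falling contig did, and the remaining 26 were mixed. The contig with the most counts per kilobase of the whole subcomponent differed between the stage means in 86 members, and in 43 it was a single contig in all bud libraries and another single contig in all day 2 libraries.

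Contig length was not used in the selection. The leading rising contig was the longer in 81 members and the leading falling contig in 86. Their median lengths were 1894 and 2015 bp, compared with 2012 bp for all contigs of at least 50 scaled counts. The lengths of the leading contigs differed by a median of 34.5% of the longer, by up to 10% in 29 members and by over 50% in 47. The closest lengths were those of comp20238_c2, in which comp20238_c2_seq6 of 2867 bp rose from 22.8, 8.70 and 11.8 scaled counts to 91.5, 109.8 and 83.1, and comp20238_c2_seq4 of 2872 bp fell from 1008, 1049 and 913 to 220, 156 and 139. In comp16212_c0 contigs of 2315 and 2320 bp moved from 1513 ± 81.6 to 4498 ± 1120 and from 1610 ± 64.3 to 656 ± 39.7, and 6 rising and 16 falling contigs of that graph went from 19.4% to 53.2% and from 59.6% to 20.5% of its counts.

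**Figure D5:**
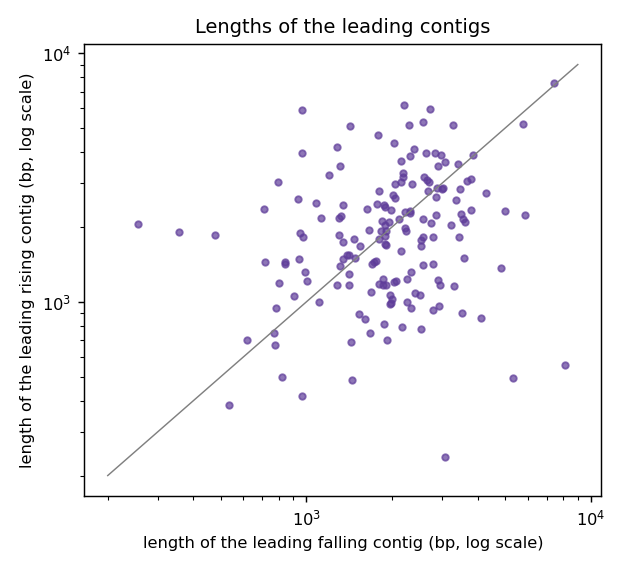
Length of the leading rising contig against that of the leading falling contig in the 167 members (both axes in bp, logarithmic), with the line of equal length. Points lie on both sides of the line, 81 above it and 86 below it.

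Many members held some contigs with near-equal counts. In 118 members some contigs formed pairs whose counts lay less than 10% apart in each of the 6 libraries, and linking such pairs reduced the 709 rising contigs to 552 groups and the 814 falling contigs to 666. These pairs were 1820 of the 74798 possible within members (2.43%) among contigs of at least 50 scaled counts. In 131 of the 1820 the lengths differed at least 1.5-fold. Contigs comp18194_c0_seq3 of 1478 bp and comp18194_c0_seq5 of 3643 bp, both falling, had means of 723 and 713 scaled counts in buds and 318 and 311 on day 2. The rising contigs of that graph, comp18194_c0_seq1 and comp18194_c0_seq7, were alike too, at 73.6 and 69.7 in buds and 278 and 265 on day 2. Whether a read that matched several contigs was counted on each of them was not tested.

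The spread between libraries of a stage was not itself a criterion, although libraries of the stages had to lie apart. For the leading falling contigs in buds, the coefficient of variation had a median of 11.8% for scaled counts and 8.07% for shares of the subcomponent, and it was lower for the share in 115 of 167. For the leading rising contigs on day 2 the medians were 12.8% and 8.01%, and the share was the less variable in 119 of 167. In the stage where a leading contig was low, the difference was smaller, with 13.8% and 11.9% for rising contigs in buds and 18.8% and 18.4% for falling contigs on day 2, among those with at least 50 counts there. The rank order of the 3 bud libraries was the same for both leading contigs in 28 members and opposite in 29, and that of the day 2 libraries in 24 and 26. Neither of these orders was clearly the more frequent. Another order was found for 109 members in buds and 114 on day 2, and 1 and 3 held ties. Most of the possible orders of 3 libraries are of this other kind, so its number alone says nothing about the contigs.

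The limits of the selection cut through a continuous range. The sum of comp19424_c2 changed 1.99-fold and that of comp16022_c0, just outside, 2.02-fold. The component sum of comp19010_c0 reached 498 CPM, and that of comp18697_c1, just outside, 510.3 CPM. In comp10740_c0 the weaker of the opposing contigs changed 2.01-fold and in comp20295_c1, which was left out, 1.999-fold. The less counted of the opposing contigs had a mean of 50.6 scaled counts in comp20278_c0 and of 49.6 in comp19594_c0, which was left out. With any single library left out, 170 to 181 subcomponents met the criteria, of which 140 (without day 2 replicate 2) to 155 (without bud replicate 3) were among the 167.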

How the data were processed

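The authors built the contigs from trimmed 100-bp paired-end reads with Trinity, and mapping by TopHat and counting by HTSeq followed. The paper names the FASTX toolkit for trimming, and the submitters' processing notes name CASAVA 1.8.2 and Trimmomatic 0.22. The deposited values are raw counts for each contig and library, with contig lengths. The paper gives a total of reads from all samples that mapped unambiguously to a feature. The deposited counts sum to far more than that total, with 87419488 counts in the smallest library alone. How read pairs and multiply matching reads entered the counts was not tested. Component sums and shares add the contig counts as deposited, so a read counted on several contigs would enter them more than once. They therefore need not equal numbers of distinct reads.

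Members and named contigs were chosen with earlier results of these data known. Named were the 6 members with the most scaled counts, the 6 whose leading contigs lay farthest apart among those with counts in both stages, the 4 with the steadiest sums, the 6 most counted with exactly 2 contigs, the 4 with leading contigs closest in length, the subcomponents just inside and outside each limit, and the study's transporter components. Others are marked as chosen after their values were seen. Size factors used the 29550 components without a 0.

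Contigs and component sums were tested in R 4.3.3 with edgeR 4.0.16 (filterByExpr with 10 counts as its minimum and 15 as its minimum total, TMM, glmQLFit and glmQLFTest, Benjamini-Hochberg adjustment over all features, called at an adjusted p below 0.05). P-values measure the spread between 3 pooled libraries per stage. Alternatives used RLE factors, library totals, no filter, DESeq2 1.42.0, limma-voom (limma 3.58.1), edgeR's exact test, a replicate block and each library left out. Checked on simulated counts, the quasi-likelihood test recovered 96.0% of 200 contigs changed 2-fold among 87767 in the comparison of day 2 with bud, and 7.25% of its calls were false. The changed contigs were taken from the better counted ones, and every contig was drawn independently. In the data 30.4% of contigs were called higher and 31.5% lower, so these rates need not hold there.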

Additional observations from a re-analysis of the deposited data

How the results depend on the processing

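The 167 subcomponents became 349 when each contig had to change only 1.5-fold, 54 at 3-fold, 89 with a minimum mean of 200 scaled counts and 105 when the sum had to change under 1.5-fold. The other planned changes of the selection gave 159 to 217 subcomponents, but with library totals alone only 86 of 163 were shared with the 167. All 167 pairs of leading contigs were called in edgeR, 158 with library totals alone, 166 with the replicate block and 162 to 167 with any 1 library left out. In the named members, the median change in the share of the rising contig was 17.3 percentage points, 15.6 per kilobase and 45.7 within the leading pair alone. Of 624 fold changes of 48 named contigs under 13 alternatives, none changed direction and 617 kept their call. The other 7 concerned comp19228_c0_seq2 and comp9512_c0_seq1, which also lost their calls with library totals alone (log2 fold change 0.90 and 1.08), and comp9512_c0_seq1 lost it without bud replicate 2 (1.33). Deviations from the stage mean had correlations of 0.0268, 0.0938 and 0.0201 between libraries of the same number. Between libraries of different numbers they ran from −0.0798 to 0.0516. Deviations from a mean of 3 libraries are bound to each other, so these values cannot decide whether the numbers pair the libraries. The replicate block called 56141 contigs against 56595. Whether a read was counted on more than 1 contig, and its part in these values, was not tested.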
